A study of Mus musculus with 6 samples.

Results

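Phase II conjugation enzymes attach glutathione, glucuronic acid or sulfate to drugs, hormones, bile pigments and lipid peroxidation products, and so make them water-soluble. The genes described here are the protein-coding genes of the organoid RNA-Seq table whose symbol falls in the families Gst and Mgst (glutathione S-transferases), Ugt (UDP-glucuronosyltransferases) or Sult (cytosolic sulfotransferases). They were chosen by symbol alone, and 69 of the 55416 genes in the table, or of 21627 protein-coding ones, belong to them: 27 Gst or Mgst, 21 Ugt and 21 Sult genes. Another 8 pseudogenes whose names follow the same pattern were left out.

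Organoids had been grown from small intestinal crypts (duodenum and jejunum) of 3 mice of the strain C57BL/6, labelled WT, and each mouse gave 1 culture treated with LDL at 50 μg/ml and 1 with PBS, both for 5 days. LDL is the plasma lipoprotein that carries cholesterol, and PBS, a buffered saline, was the control. This made 6 libraries of total RNA after removal of ribosomal RNA, 3 per treatment, with the 2 libraries of a mouse sharing 1 animal identifier. The ages of the mice were not given in the sources used here. With 3 mice, 1 animal can decide a call, so counts of calls are also given without single mice.

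Depth lay between 22061545 and 31073360 reads on genes per library. The LDL-treated library of mouse 1 stood apart, with reads on 35781 genes and 7.62% of its reads on a copy of the 18S ribosomal RNA. The organoids expressed the defining genes of intestinal epithelium: 12 enterocyte markers summed to 48429 to 94078 normalized counts per library, against 20.9 to 82.9 for 8 stromal, 231 to 317 for 8 immune and 16.4 to 39.0 for 5 endothelial markers.

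The 3 enzyme families work on a common plan. A glutathione S-transferase joins an electrophile to glutathione in the cytosol or, for the Mgst proteins, at a membrane. A UDP-glucuronosyltransferase in the endoplasmic reticulum takes glucuronic acid from UDP-glucuronate, and a sulfotransferase takes sulfate from PAPS, the activated form of sulfate. The conjugates leave the cell through ABC transporters, and enterocytes use all of these reactions to limit what is absorbed from the lumen.

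The unit of all levels is the normalized count, reads on a gene over the size factor of the library. Genes with a mean of at least 10 were tested, and this left 47 of the 69 members: 26 Gst or Mgst, 14 Ugt and 7 Sult genes. Of the 22 others, 4 (Sult2a1, Sult2a3, Sult2a5 and Ugt2a2) had no read in any library, and the highest was Sult4a1 with a mean of 9.20. One tested gene, Ugt2b1, had a mean of at least 10 in LDL-treated organoids alone (15.8 against 9.44 with PBS), and it was not called. Log2 values of the normalized count plus 1 were compared with limma with the mouse as a block, and a gene counted as called when its adjusted p-value was below 0.05 and it had moved more than 1.5-fold.

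By this test, 7 members were upregulated and 3 downregulated in LDL-treated organoids, which is 14.9% and 6.38% of the 47 tested, and 37 were not called. Over all 18459 genes tested, 5.68% were called higher and 3.46% were called lower. The 7 were 4 alpha-class transferases (Gsta1, Gsta13, Gsta2 and Gsta5), the glucuronosyltransferases Ugt2b5 and Ugt2b38, and the sulfotransferase Sult6b2. The 3 were the mu-class transferases Gstm2 and Gstm7 and the pi-class transferase Gstp3. The 7 are not 7 independent measurements, because the 4 alpha-class genes and the 2 Ugt2b genes share sequence with each other. When these close copies and the pair Gstp1 and Gstp2 were each summed, 3 entries were called higher and 3 lower.

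The calls depended on the mouse block and on mouse 3. Without the block limma called 1 member higher (Sult6b2) and 0 lower, against 0.878% and 0.395% of all genes tested. DESeq2 without the block called 7 higher and 1 lower, against 4.59% and 1.89% of all genes with an adjusted p-value in that fit. Without mouse 3, 2 members were called higher (Sult6b2 and Ugt2b5) and 1 lower (Gstp3), against 1.44% and 0.417% of all genes. Without mouse 1 the counts were 7 and 2, against 4.11% and 1.77%. Without mouse 2 they were 8 and 5, against 8.69% and 7.30%. Mouse 2 had the smallest difference between treatments for 8 of the 10 called members (80.0%), and for 70.1% of all genes called.

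**Figure D1:**
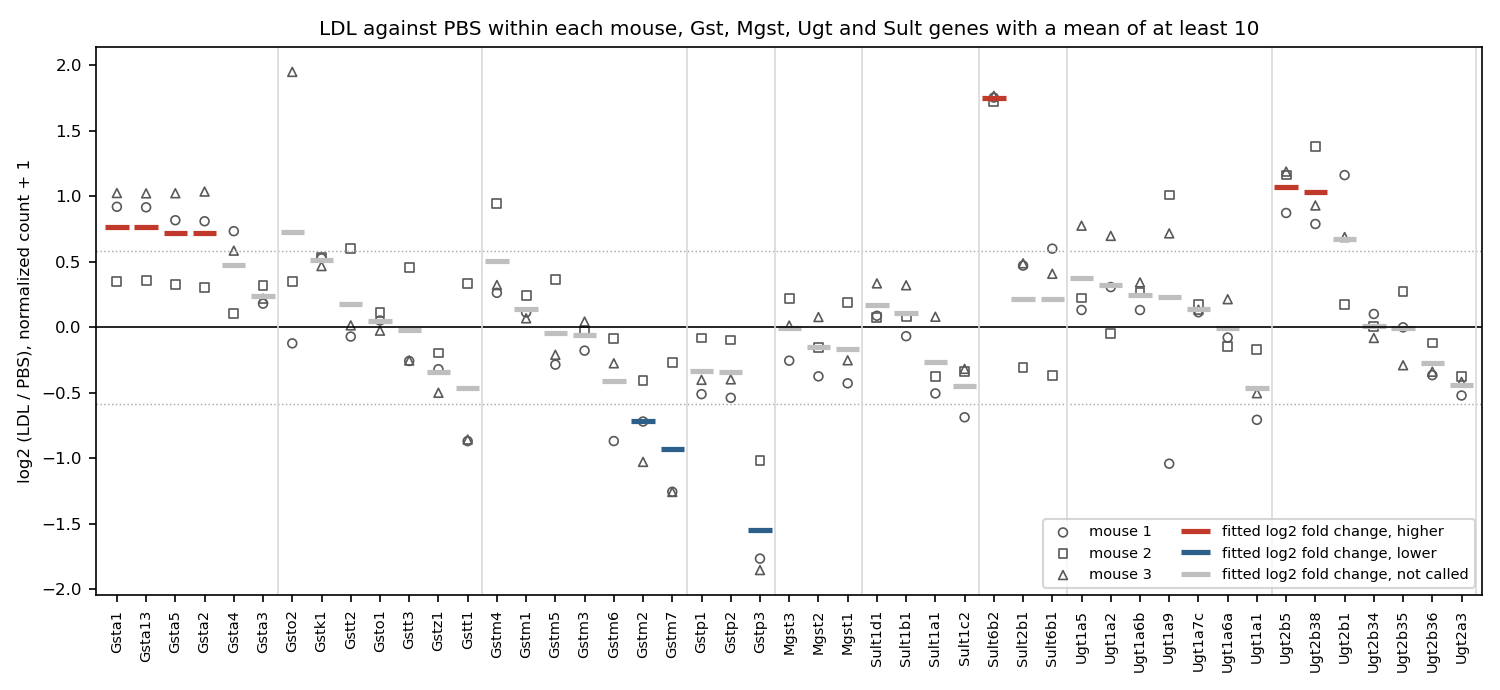
Log2 ratio of LDL to PBS (normalized count plus 1) within each of the 3 mice for the 47 tested genes, ordered by subfamily and separated by vertical lines. Open symbols are mice, thick bars are the fitted log2 fold changes (red called higher, blue called lower, grey not called), and dotted lines mark 1.5-fold. The 3 mice lie almost on 1 point for Sult6b2, while the square of mouse 2 lies nearest to 0 for the 4 called alpha-class genes and for Gstp3, Gstm2 and Gstm7.

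Across the 47 tested members, 26 fitted changes were above 0 and 21 below. Their median log2 fold change was 0.11, beside a median of -0.02 over all genes tested, and the median size without sign was 0.33 beside 0.20. The ranges of the treatments were separate for 12 members with LDL above (25.5%, against 11.9% of all genes tested) and for 1 member with LDL below (2.13%, against 12.3%). The tested members include Ugt2b1, whose mean reached the filter with LDL alone. Another 5 members had an adjusted p-value under 0.05 with a change of less than 1.5-fold. They were Gsta4 and Gstk1 on the higher side and Ugt1a1, Ugt2a3 and Gstz1 on the lower side. All genes at an adjusted p-value under 0.05 of any size made up 15.7% of those tested, and 15 of the 47 members did so. The naming rule gave the 10 called members, Gstm3, Gstp2, Gsto1, Mgst1, Ugt1a1, Ugt1a7c, Ugt2b34, Sult1c2 and Sult1d1 and, outside the families, called list genes with a mean of at least 100. All other genes named were chosen after their values were seen.

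By summed normalized counts alpha-class transferases were the largest class, and 4 of the 6 genes were called higher. The 6 Gsta genes together took 34.0%, 39.3% and 34.2% of the normalized counts of all 69 members in the PBS-treated organoids of mice 1, 2 and 3, and 50.7%, 43.6% and 51.3% in the LDL-treated ones. Of this, the near-identical Gsta1 and Gsta13 made up 24.1%, 29.6% and 24.2% with PBS and 37.4%, 33.5% and 38.5% with LDL. If the same reads were counted for both genes, the shares and sums of the class are too high. Their sum was 35493, 58989 and 40929 with PBS and 64171, 73742 and 78335 with LDL, so that every LDL-treated library lay above every PBS-treated one. All 6 were higher with LDL in all 3 mice.

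Gsta1 and its copies encode transferases with peroxidase activity toward lipid hydroperoxides. Gsta1, Gsta13, Gsta5 and Gsta2 lie within 1 cluster on chromosome 9 of GRCm39, at chr9:78137927-78149966, chr9:78164411-78176451, chr9:78197205-78212812 and chr9:78238292-78263077, with Gsta2 on the minus strand and the others on the plus strand. Gsta1 and Gsta13 agree at 670 of 672 coding bases. Counting works on single reads, so the first coding bases of the annotated transcripts, cut to the length of 1 read, are shown to make visible how little separates these genes. Capitals mark bases that differ from Gsta1:
Gsta1: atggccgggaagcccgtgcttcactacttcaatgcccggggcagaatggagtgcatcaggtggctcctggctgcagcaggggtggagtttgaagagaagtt
Gsta2: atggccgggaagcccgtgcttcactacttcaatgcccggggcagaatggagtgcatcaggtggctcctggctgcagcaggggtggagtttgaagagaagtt
Gsta5: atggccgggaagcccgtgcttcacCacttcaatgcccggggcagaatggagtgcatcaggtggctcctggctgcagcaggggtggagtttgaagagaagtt
Gsta13: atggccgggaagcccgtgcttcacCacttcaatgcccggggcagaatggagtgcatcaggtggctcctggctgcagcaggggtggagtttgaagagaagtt
In this stretch Gsta2 was identical to Gsta1, and Gsta5 and Gsta13 were identical to each other, with 1 base different from Gsta1. A read from it could fit 2 genes equally well. Over the whole transcripts, 80.5% of the read-length windows of Gsta1 and 85.2% of those of Gsta13 occur in another gene of the annotation, but only 15.2% of those of Gsta2 and 22.1% of those of Gsta5. How reads with several placements were counted was not given in the sources used here.

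Gsta1 had normalized counts of 12401, 22006 and 14341 in PBS-treated organoids of mice 1, 2 and 3, and of 23472, 28098 and 29190 in LDL-treated ones. Mouse 2 started from the highest level and changed least, and the treatments did not overlap. The ratios within mice were 1.89, 1.28 and 2.04, and the log2 fold change was 0.77 (SE 0.139, adjusted p = 0.0103 from limma). Gsta13 moved with it almost exactly, from 12677, 22365 and 14607 to 23929, 28623 and 29684 (log2 fold change 0.77, adjusted p = 0.0101). The ratio of Gsta13 to Gsta1 was 1.02 in each of the 6 libraries, with a coefficient of variation of 0.208%. Independent counts of this size would have a counting error of 0.754% to 1.28% in that ratio, so the ratio varied by less than the counting error of separately counted genes, and the 2 values are not independent.

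Gsta2 and Gsta5, which share fewer windows with Gsta1, gave the same picture at lower levels. The ratio of Gsta5 to Gsta2 had a coefficient of variation of 1.54%. Independent counts would have a counting error of 2.09% to 3.47%, so these 2 genes are not shown to be separate measurements either. Gsta2 rose from 1452, 2493 and 1626 to 2545, 3079 and 3336 (log2 fold change 0.72, SE 0.131, adjusted p = 0.0103), and Gsta5 rose from 2035, 3430 and 2223 to 3588, 4298 and 4522 (0.72, SE 0.127, adjusted p = 0.00888). In neither gene did the treatments overlap. The 4 genes summed had a log2 fold change of 0.76 (SE 0.154, adjusted p = 0.0154). None of the 4 was called without the block (adjusted p = 0.111 to 0.118). Without mouse 3 they were lost as well, with adjusted p-values of 0.146 to 0.173 and log2 fold changes of 0.56 to 0.64.

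Gsta4, which clears the lipid aldehyde hydroxynonenal, and Gsta3 share little sequence with Gsta1 (68.6% and 76.1% of aligned coding bases). Gsta4 had 5251, 7036 and 6346 normalized counts with PBS and 8735, 7574 and 9524 with LDL. Its treatments did not overlap, but the log2 fold change of 0.48 (SE 0.122, adjusted p = 0.0369) stayed under the 1.5-fold limit. Gsta3 had 1677, 1660 and 1785 with PBS and 1901, 2070 and 2079 with LDL (log2 fold change 0.24, adjusted p = 0.0681). The ratio of Gsta4 to Gsta1 had a coefficient of variation of 18.4% over the libraries, unlike that of Gsta13.

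**Figure D2:**
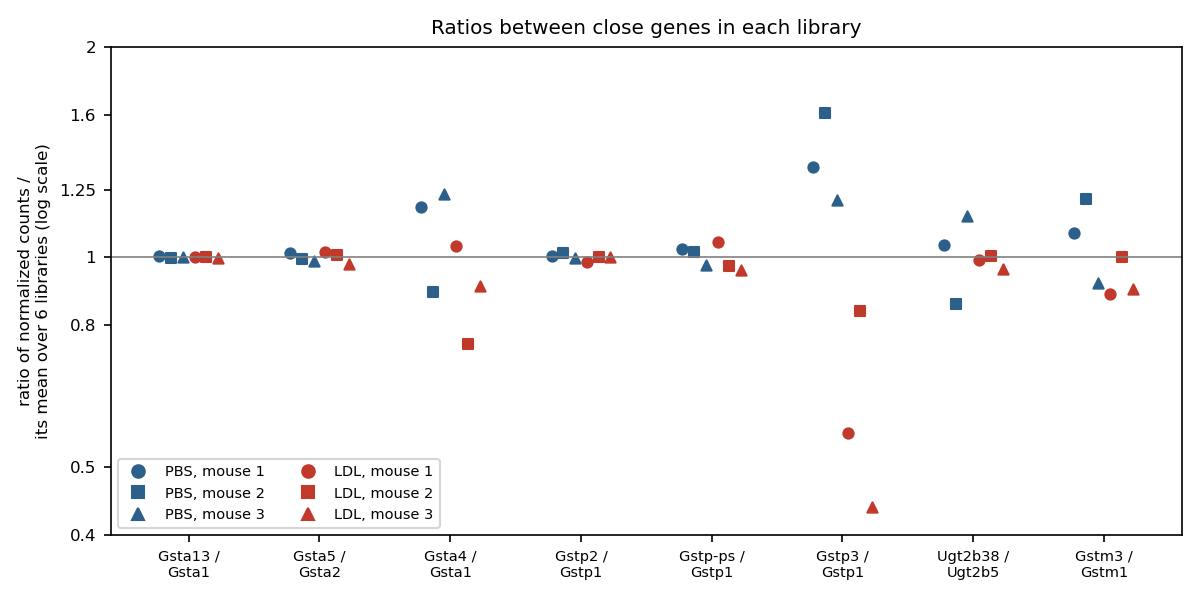
Ratio of the normalized counts of pairs of related genes in each library, divided by its mean over the 6 libraries, on a log scale. Blue is PBS, red is LDL, and symbols are mice. The points of Gsta13 to Gsta1 and of Gstp2 to Gstp1 fall on 1 line, those of Gsta5 to Gsta2 and of Gstp-ps to Gstp1 stay near it, and Gstp3 to Gstp1 falls apart by treatment.

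The promoters of these genes were compared because the genes moved together. RefSeq promoters of the build GRCm38.p6 (250 bases before to 50 after the start) were found for 59 of the 69 members. Gsta1 (chr9:78230419-78230718, plus strand) and Gsta2 (chr9:78347096-78347395, minus strand) are shown, each written in the direction of its gene, with capitals for bases that the alignment did not match:
Gsta1 promoter: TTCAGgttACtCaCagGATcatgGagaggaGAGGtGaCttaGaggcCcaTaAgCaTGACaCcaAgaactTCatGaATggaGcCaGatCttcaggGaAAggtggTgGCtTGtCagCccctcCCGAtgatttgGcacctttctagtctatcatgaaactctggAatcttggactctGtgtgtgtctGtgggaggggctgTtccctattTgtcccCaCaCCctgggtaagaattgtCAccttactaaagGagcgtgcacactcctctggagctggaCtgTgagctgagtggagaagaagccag
Gsta2 promoter: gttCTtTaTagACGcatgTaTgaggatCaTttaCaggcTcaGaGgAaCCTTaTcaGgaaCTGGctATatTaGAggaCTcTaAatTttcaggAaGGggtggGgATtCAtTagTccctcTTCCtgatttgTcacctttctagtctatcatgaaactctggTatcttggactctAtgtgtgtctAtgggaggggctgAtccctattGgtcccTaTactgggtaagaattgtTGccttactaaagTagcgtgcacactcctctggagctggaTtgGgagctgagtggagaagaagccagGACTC
They shared 80.3% of aligned bases. The core of the antioxidant response element, the site bound by NRF2 (letters TGACNNNGC, both strands), was in neither promoter. It was present in the promoters of 4 members (Gsta3, Gstm5, Gstm7 and Mgst1), of which Gstm7 was called lower and the others were not called, and in those of 14.0% of all genes. The core of the dioxin response element, bound by the aryl hydrocarbon receptor (letters TNGCGTG, both strands), was in 3 member promoters (Gsta2, Sult1d1 and Ugt1a5) and in 5.84% of all genes. No member promoter held the DR1 repeat bound by PPAR and RXR, which 0.0481% of all genes held, or the HNF1 inverted repeat, which 0.0740% held. These searches cover the short window alone.

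Mu-class transferases did not move as a group. The 7 Gstm genes lie in 1 cluster on chromosome 3, and their sum was 21320, 33392 and 25001 with PBS and 20206, 35513 and 25341 with LDL, with ratios of 0.948, 1.06 and 1.01. Gstm3 was the highest of them per kilobase of exon and Gstm1 followed. Gstm3 had 10033, 16820 and 10949 with PBS and 8870, 16451 and 11288 with LDL (log2 fold change -0.06, 95% confidence interval -0.26 to 0.15, adjusted p = 0.724). Gstm1 had 9237, 13881 and 11926 with PBS and 9993, 16418 and 12511 with LDL, a log2 fold change of 0.14 (adjusted p = 0.316). For both, mouse 2 was above the other mice whatever the treatment.

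Gstm2 (chr3:107889004-107893785, minus strand) and Gstm7 (chr3:107832278-107839187, minus strand) went down, both with counts far under those of Gstm3 and Gstm1. Gstm2 had 647, 843 and 579 normalized counts with PBS and 393, 636 and 283 with LDL. It was lower in each mouse, with ratios of 0.607, 0.755 and 0.490, but the LDL value of mouse 2 lay above the PBS value of mouse 3. Its log2 fold change was -0.72 (SE 0.126, adjusted p = 0.00879). Gstm7 had 266, 343 and 297 with PBS and 111, 285 and 124 with LDL, again overlapping through mouse 2. Its log2 fold change was -0.93 (SE 0.202, adjusted p = 0.0204). Without the block neither gene was called (adjusted p = 0.214 and 0.183), nor without mouse 3 (0.138 and 0.237), and Gstm7 was also lost without mouse 1 (0.0536). Gstm4 had the opposite sign, from 185, 193 and 204 to 222, 371 and 256, and was not called (log2 fold change 0.51, adjusted p = 0.0660).

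All 3 pi-class transferases had lower counts with LDL in every mouse, but only Gstp3 was called. The 3 Gstp genes lie next to each other on the minus strand of chromosome 19, Gstp1 at chr19:4085405-4088068, Gstp2 at chr19:4090285-4096023 and Gstp3 at chr19:4106035-4109569. Gstp1 and Gstp2 agree at 98.1% of coding bases and Gstp1 and Gstp3 at 74.1%, as the first read length of coding bases shows, with capitals for differences from Gstp1:
Gstp1: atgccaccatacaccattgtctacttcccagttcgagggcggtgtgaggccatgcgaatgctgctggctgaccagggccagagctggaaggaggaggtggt
Gstp2: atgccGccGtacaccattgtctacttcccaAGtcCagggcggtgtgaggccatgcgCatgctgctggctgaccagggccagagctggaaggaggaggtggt
Gstp3: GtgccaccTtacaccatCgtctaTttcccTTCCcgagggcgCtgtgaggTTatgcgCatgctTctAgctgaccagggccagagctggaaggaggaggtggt
Gstp2 differed at 6 and Gstp3 at 14 of these bases. No read-length window of Gstp3 occurs in another gene, so its count does not rest on reads of its neighbours, while 23.7% of the windows of Gstp1 and 47.2% of those of Gstp2 occur elsewhere, including in the pseudogene Gstp-ps on chromosome 1.

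Gstp3 had 438, 589 and 465 normalized counts with PBS and 128, 290 and 128 with LDL. All LDL values lay below all PBS values, and Gstp3 was the one tested member of the families of which this was true. The ratios within mice were 0.292, 0.493 and 0.275, and the log2 fold change was -1.55 (SE 0.170, 95% confidence interval -1.94 to -1.15, adjusted p = 0.00138), a 2.92-fold fall. The gene was called without mouse 3 (adjusted p = 0.0430) and by DESeq2 without the block (adjusted p = 2.6e-04), but not by limma without the block (adjusted p = 0.0614).

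Gstp1 and Gstp2, with counts far above those of Gstp3, had smaller changes of the same sign. Gstp1 had 7441, 8367 and 8796 with PBS and 5224, 7910 and 6662 with LDL (log2 fold change -0.33, adjusted p = 0.0619). Gstp2 had 6607, 7505 and 7782 with PBS and 4549, 7021 and 5909 with LDL (-0.34, adjusted p = 0.0542). Summed, they gave a log2 fold change of -0.34 (adjusted p = 0.0708), and neither was called. The ratio of Gstp2 to Gstp1 stayed between 0.871 and 0.897, and that of Gstp-ps to Gstp1 between 0.463 and 0.507. That of Gstp3 to Gstp1 ranged from 0.0192 to 0.0704.

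The remaining cytosolic classes and the membrane-bound Mgst proteins gave no call. Gsto1, an omega-class enzyme that reduces dehydroascorbate, was the highest per kilobase among the kappa, omega, theta and zeta classes. It had 6105, 6657 and 6902 with PBS and 6330, 7186 and 6781 with LDL, a log2 fold change of 0.05 with a 95% confidence interval of -0.13 to 0.22. Gstk1, the kappa-class enzyme of mitochondria, was higher in each mouse by almost the same ratio (1.45, 1.46 and 1.39), with a log2 fold change of 0.51 (adjusted p = 0.0489). Gstz1, which isomerizes maleylacetoacetate in tyrosine breakdown, had ratios of 0.801, 0.873 and 0.707 and a log2 fold change of -0.34 (adjusted p = 0.0402); 19.3% of its read-length windows lie also in other genes. Gstt1 split by mouse: from 224, 225 and 249 with PBS, it was 122 and 137 with LDL in mice 1 and 3 but 284 in mouse 2, and it was called lower when mouse 2 was left out. Mgst1, Mgst2 and Mgst3 had fitted log2 changes from -0.16 to -0.01, and Mgst1 had the highest level per kilobase. Mgst1 had 2572, 3560 and 2979 with PBS and 1912, 4059 and 2502 with LDL, lower in mice 1 and 3 and higher in mouse 2 (adjusted p = 0.403).

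**Figure D3:**
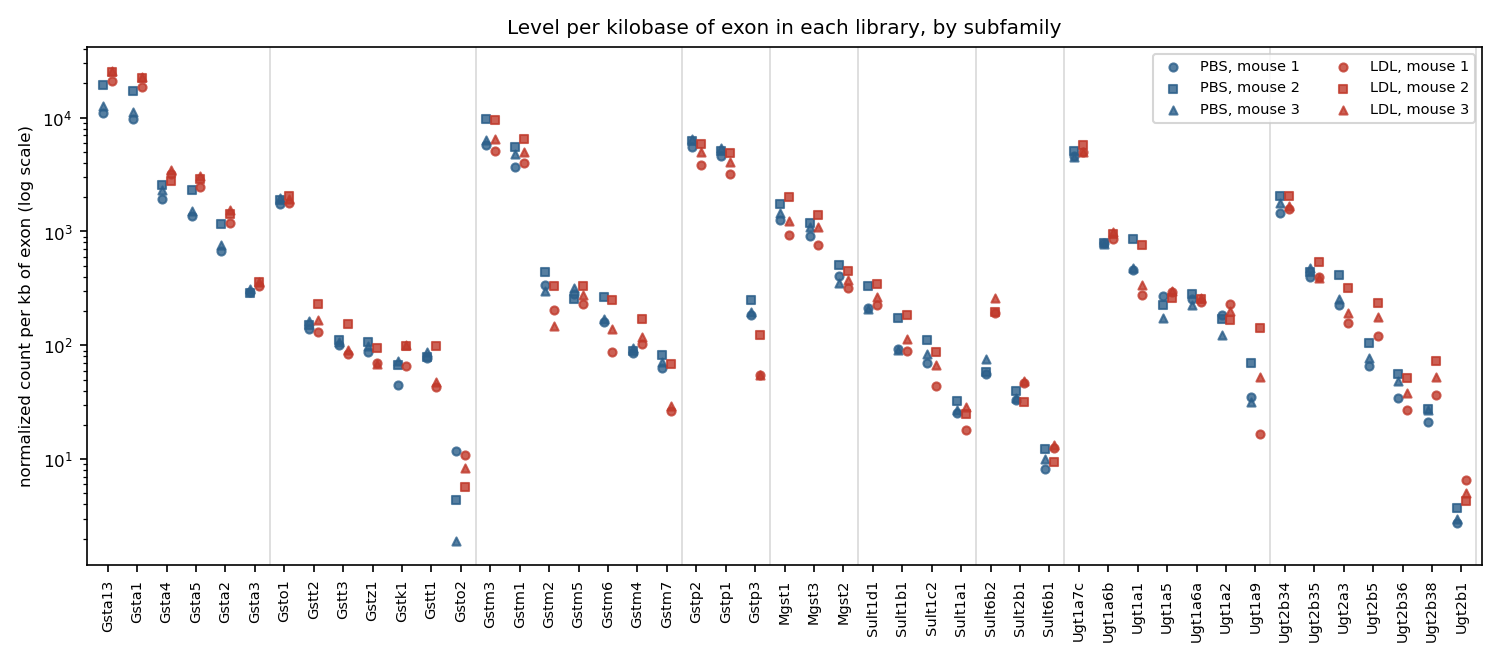
Normalized count per kilobase of exon, on a log scale, for the 47 tested genes in each library, ordered by level within subfamilies. For the Ugt1a genes, the exon bases of each gene alone were used, and for all other genes the full exon length. Gsta13 and Gsta1 are the highest genes, with means of 19180 and 16942, and Ugt2b1 is the lowest, with 4.21.

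Levels can be compared between genes only per length. Per kilobase of exon, Gsta13 (mean 19180) and Gsta1 (16942) led all members, and their neighbours in order were Gstm3 (7136), Gstp2 (5492), Ugt1a7c (4994), Gstm1 (4902) and Gstp1 (4531). The values of these 5 overlapped between libraries, so their order is not fixed. For Ugt1a7c the count was divided by the exon bases of that gene alone. If reads on the exons it shares were counted for it, its level is too high. The highest sulfotransferase, Sult1d1, had 265.

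The Ugt1a genes are a special case. They lie along chromosome 1 with first exons of their own and the same last exons, so that Ugt1a1, Ugt1a6b, Ugt1a7c and Ugt1a9 all end at base 88147724 of GRCm39. Between 54.2% and 82.9% of the read-length windows of each Ugt1a gene occur in another gene, and the level per kilobase was taken over the exon bases of 1 gene alone. None of the 7 tested was called. Ugt1a7c, the highest, had 4467, 4994 and 4425 with PBS and 4838, 5635 and 4858 with LDL, higher in each mouse with a log2 fold change of 0.14 (95% confidence interval -0.03 to 0.31, adjusted p = 0.239). Ugt1a6b, whose products conjugate simple phenols, had 839, 835 and 833 with PBS and 920, 1005 and 1057 with LDL, without overlap, and a log2 fold change of 0.25 (adjusted p = 0.0868). Ugt1a1, the enzyme that glucuronidates bilirubin, was the largest fall among the Ugt genes. It had 416, 784 and 441 with PBS and 255, 697 and 311 with LDL, lower in each mouse but overlapping between treatments through the high values of mouse 2. Its log2 fold change was -0.46 (SE 0.120, adjusted p = 0.0395), under the 1.5-fold limit, and it was called lower when mouse 2 was left out (log2 fold change -0.60, adjusted p = 5.6e-04).

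Among the Ugt2 genes, which conjugate steroids, bile acids and fatty acid derivatives, 2 close copies rose while the most abundant gene did not. Ugt2b5 (chr5:87272226-87288211) and Ugt2b38 (chr5:87557801-87572062) lie on the minus strand of chromosome 5 and agree at 97.0% of coding bases. Over the first read length of coding bases they are the same:
Ugt2b5: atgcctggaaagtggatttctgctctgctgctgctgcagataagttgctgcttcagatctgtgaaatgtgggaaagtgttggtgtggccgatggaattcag
Ugt2b38: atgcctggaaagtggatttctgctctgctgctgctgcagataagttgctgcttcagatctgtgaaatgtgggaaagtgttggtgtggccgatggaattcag
Over the whole transcripts, 15.6% of the read-length windows of Ugt2b5 and 24.1% of those of Ugt2b38 occur in another gene. Ugt2b5 had 165, 263 and 194 normalized counts with PBS and 304, 591 and 443 with LDL. Every LDL value lay above every PBS value, and the ratios within mice were 1.84, 2.24 and 2.29. The log2 fold change was 1.08 (SE 0.115, adjusted p = 0.00121). Ugt2b38 went from 39.8, 52.2 and 51.3 to 69.5, 137 and 98.7, also without overlap (log2 fold change 1.03, SE 0.195, adjusted p = 0.0118). The ratio of Ugt2b38 to Ugt2b5 was between 0.198 and 0.265, and both genes summed changed by 1.07 on the log2 scale (adjusted p = 0.00102). Neither was called by limma without the block (adjusted p = 0.0936 and 0.107), and DESeq2 without it called both (0.00136 and 0.0102). Without mouse 3 Ugt2b5 was called (0.0485) and Ugt2b38 was not (0.132).

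Their RefSeq promoters (GRCm38.p6, chr5:87140291-87140590 and chr5:87424154-87424453, both minus strand) are shown because the 2 genes moved together; capitals mark bases that the alignment did not match:
Ugt2b5 promoter: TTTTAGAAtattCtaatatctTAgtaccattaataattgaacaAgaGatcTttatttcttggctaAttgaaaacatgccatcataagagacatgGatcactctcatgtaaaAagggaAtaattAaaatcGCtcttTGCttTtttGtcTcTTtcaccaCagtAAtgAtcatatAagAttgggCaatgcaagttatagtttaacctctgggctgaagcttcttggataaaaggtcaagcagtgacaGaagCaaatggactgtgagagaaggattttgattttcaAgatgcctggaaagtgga
Ugt2b38 promoter: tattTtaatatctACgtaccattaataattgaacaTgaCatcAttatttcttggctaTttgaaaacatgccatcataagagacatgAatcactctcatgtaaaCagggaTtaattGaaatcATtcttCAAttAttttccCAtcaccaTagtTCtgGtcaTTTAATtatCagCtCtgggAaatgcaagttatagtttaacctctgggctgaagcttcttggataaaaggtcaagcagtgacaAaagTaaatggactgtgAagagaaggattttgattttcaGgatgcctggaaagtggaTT
They agreed at 90.0% of aligned bases. Neither held any of the motifs searched.

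The other Ugt2 genes were not called. Ugt2b34, the highest per kilobase (1767), had 6348, 8846 and 7716 with PBS and 6813, 8893 and 7294 with LDL, a log2 fold change of 0.01 (95% confidence interval -0.18 to 0.20). Ugt2a3 was lower in each mouse by similar ratios (0.697, 0.770 and 0.749), with a log2 fold change of -0.44 and an adjusted p-value of 0.0146, under the 1.5-fold limit. Its level in mouse 2 was above that of the other mice in both treatments, 966 with PBS and 744 with LDL. The sum over all Ugt2 and Ugt3 genes had ratios of 1.05, 1.05 and 0.938.

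Sult6b2, a cytosolic sulfotransferase gene, had the largest fitted change of all 47 tested members. It lies at chr6:142730930-142750228 on the minus strand, and had 121, 127 and 164 normalized counts with PBS and 412, 421 and 559 with LDL. The lowest LDL value was above the highest PBS value by a wide margin, and the ratios within mice were 3.39, 3.32 and 3.42. The log2 fold change was 1.75 (SE 0.108, adjusted p = 1.2e-04), a 3.36-fold rise with a lower 95% confidence limit of 2.82-fold. It was the one member called by limma without the block (adjusted p = 0.00828), and it was called in each fit with a mouse left out. Its annotated exons overlap the long noncoding gene Gm46981 on the other strand, and 6.99% of its read-length windows match that gene. The strand setting of the counting was not given in the sources used here, so reads of the 2 genes cannot be told apart there.

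The other sulfotransferases with enough reads were not called. Sult1d1, which sulfates catecholamines, was the highest Sult1 gene per kilobase, with 529, 829 and 526 with PBS and 562, 875 and 664 with LDL (log2 fold change 0.17, adjusted p = 0.274). Sult1b1, which sulfates thyroid hormones and phenols, had 268, 507 and 262 with PBS and 256, 536 and 328 with LDL (0.11, adjusted p = 0.569). Sult1c2 had the largest fall of the Sult genes, from 169, 267 and 200 to 105, 211 and 161, lower in each mouse but not called (-0.45, SE 0.136, adjusted p = 0.0636). Of the 15 Sult2 to Sult6 genes, 3 passed the filter. The hydroxysteroid sulfotransferases of the Sult2a cluster, abundant in liver, had at most 2 reads in any library. Where a gene has no read, counting error allows up to 3, which corresponds to 2.44 to 3.73 normalized counts in these libraries.

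**Figure D4:**
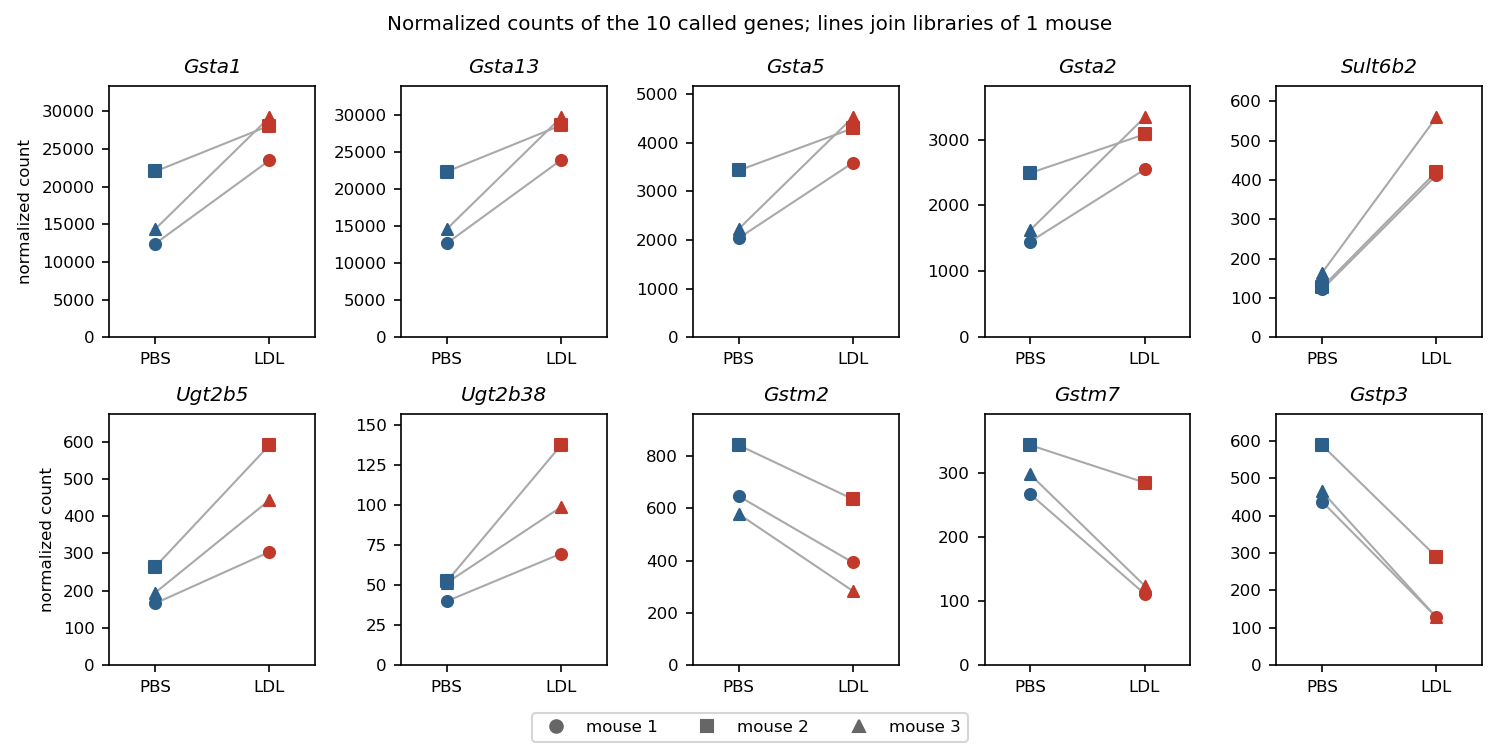
Normalized counts of the 10 called genes in each library on linear axes from 0, with lines joining the PBS- and LDL-treated library of a mouse. For the 7 genes called higher and for Gstp3 the treatments do not overlap; for Gstm2 and Gstm7 the LDL value of mouse 2 reaches into the PBS range.

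The genes that supply cofactors and export conjugates were listed by their known roles, 91 tested genes in 7 lists. Of these, 13 were called higher and 7 lower, against 5.68% and 3.46% of all genes. In either direction, 4 were called without the block, 4 without mouse 3 and 34 without mouse 2, against 1.27%, 1.85% and 16.0% of all genes. Glutathione supply held 1 rise and 2 falls among 12 genes. Gclc, the catalytic subunit of the enzyme that limits glutathione synthesis, had 3155, 3007 and 3274 with PBS and 6734, 4433 and 5826 with LDL (log2 fold change 0.83, adjusted p = 0.00272). It was called without the block too (adjusted p = 0.0475), but not without mouse 3 (0.0698). Gclm and Gss, the other synthesis genes, had log2 fold changes of 0.57 and 0.53, with adjusted p-values of 0.00289 and 0.00813, under the 1.5-fold limit. Slc7a11, which imports cystine, had 2094, 1341 and 1506 with PBS and 4721, 1290 and 4390 with LDL; it went up in mice 1 and 3 and not in mouse 2 (adjusted p = 0.0536).

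Both falls in this list were large. Chac1, which breaks glutathione down, had 325, 355 and 366 with PBS and 78.1, 93.7 and 106 with LDL (log2 fold change -1.91, SE 0.128, adjusted p = 1.5e-04). Cth, which makes cysteine from cystathionine, had 2647, 3200 and 2117 with PBS and 495, 1247 and 565 with LDL (-1.89, SE 0.171, adjusted p = 6.0e-04). Both were called without the block and in each fit with a mouse left out. Over the list, the median of the log2 fold changes was 0.11.

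For glucuronidation, 1 of 8 supply genes was called. Slc35d1, which brings UDP-glucuronate into the endoplasmic reticulum, had 750, 580 and 472 with PBS and 1638, 828 and 1080 with LDL (log2 fold change 0.94, SE 0.135, adjusted p = 0.00413), and it was lost without the block (0.113) and without mouse 3 (0.0919). Ugdh, which makes UDP-glucuronate, was higher without overlap, from 5168, 5606 and 5238 to 6905, 7605 and 6977, with a log2 fold change of 0.42 under the 1.5-fold limit (adjusted p = 0.00866).

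For sulfation, the PAPS synthases moved in opposite directions. Papss2 had 748, 953 and 934 with PBS and 1761, 2121 and 2163 with LDL, with a log2 fold change of 1.20 (SE 0.0744, adjusted p = 1.2e-04), and it was called without the block and without any 1 mouse. Papss1 had 1623, 1993 and 1693 with PBS and 742, 1314 and 789 with LDL (-0.94, SE 0.114, adjusted p = 0.00217), and was lost without the block (0.0778) and without mouse 3 (0.0650). In neither gene did the treatments overlap. The sulfate transporter gene Slc26a2 was called higher (0.67, adjusted p = 0.0111), but not without mouse 3 (0.169), without the block (0.133) or without mouse 1, where its log2 fold change of 0.52 was under the 1.5-fold limit. The list of 10 genes had a median of -0.04.

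Among exporters of conjugates, 4 of 9 were called higher, against 5.68% of all genes. At an adjusted p-value under 0.05 of any size 6 were higher, against 8.27% of all genes, and the median of the log2 fold changes was 0.51. Abcc4, a pump for glucuronides, sulfates and cyclic nucleotides, had 766, 476 and 668 with PBS and 1944, 815 and 1474 with LDL (1.09, SE 0.115, adjusted p = 0.00115). Abcc3, the basolateral pump for glucuronides, had 1952, 1763 and 1823 with PBS and 4296, 2427 and 4157 with LDL (0.93, SE 0.139, adjusted p = 0.00489). Abcc5 and Abcc1 had log2 fold changes of 0.83 and 0.69, and Abcc2, the pump of the apical membrane, one of 0.51 (adjusted p = 0.0180), under the limit. The sum of the list had ratios of 1.56, 1.15 and 1.61 in mice 1, 2 and 3. None of the 4 was called without the block (adjusted p = 0.0768 to 0.121). Without mouse 3 Abcc4 was called (0.0461) and the other 3 were not (0.101 to 0.135).

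**Figure D5:**
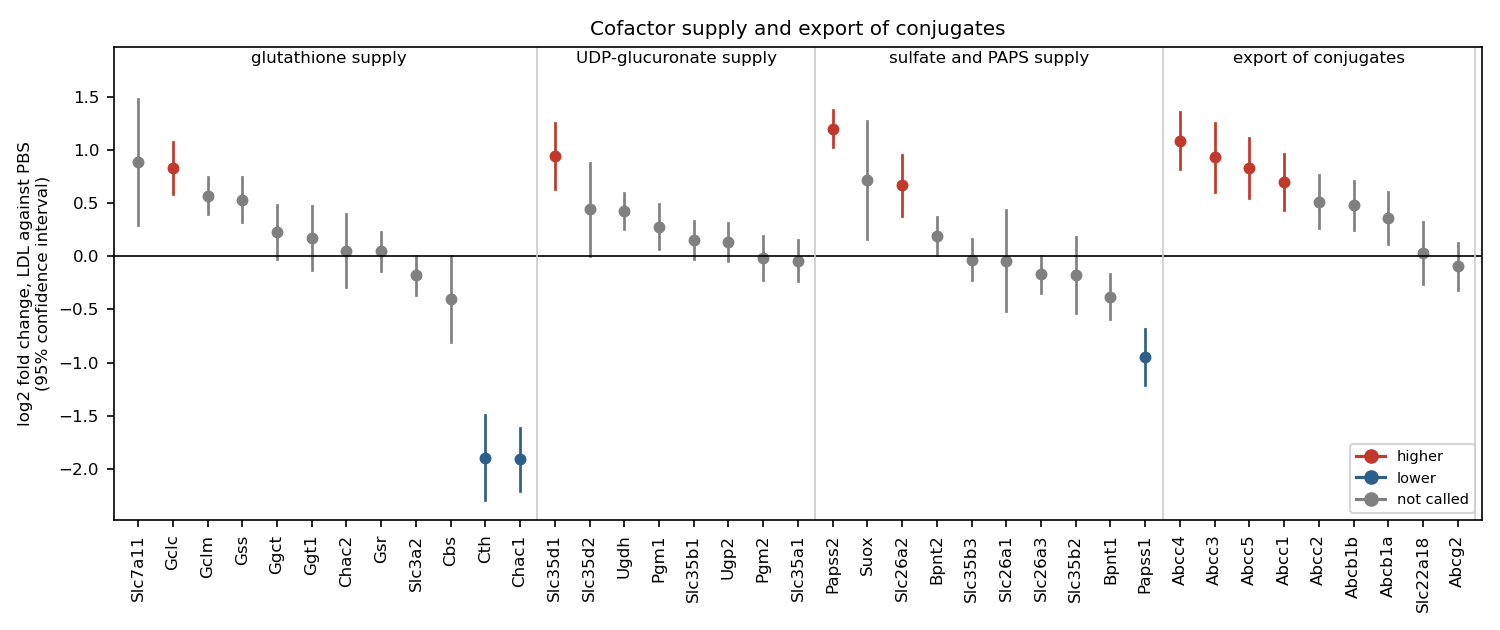
Fitted log2 fold change with its 95% confidence interval for every tested gene of cofactor supply and export, LDL against PBS with the mouse as a block. Red was called higher, blue lower and grey not called. Chac1 and Cth lie lowest at about -1.9, and 8 genes were called higher, among them 4 of the 9 exporters.

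The steps that follow conjugation and the regulators were mixed. Of 10 tested genes for deconjugation and mercapturate formation, 2 were called lower, against 3.46% of all genes. At an adjusted p-value under 0.05 of any size, 5 were lower and 1 higher, against 7.45% and 8.27% of all genes. The called genes were Dpep1, a dipeptidase of glutathione breakdown (log2 fold change -0.74, adjusted p = 0.0292), and Nat8f1, an acetyltransferase (-0.95, adjusted p = 0.0300); both were lost without mouse 1 (0.0595 and 0.141), without mouse 3 (0.187 and 0.229) and without the block (0.473 and 0.290). Of 24 tested regulators, 3 were called higher and 1 lower, against 5.68% and 3.46% of all genes. Ahrr, the repressor of the aryl hydrocarbon receptor, had 16.3, 7.46 and 12.2 with PBS and 57.3, 28.2 and 40.1 with LDL (1.73, adjusted p = 0.00503). Nr1h4, the bile acid receptor, changed by 0.80 on the log2 scale (adjusted p = 0.00607) and Ppard by 0.76 (adjusted p = 0.00777). Nr1h3, an oxysterol receptor, changed by -0.75 (adjusted p = 0.00329). Nfe2l2, which encodes NRF2, had 4082, 5422 and 4755 with PBS and 6497, 7161 and 7143 with LDL, without overlap, and a log2 fold change of 0.55 under the 1.5-fold limit (adjusted p = 0.00507). None of the 4 called regulators was called without the block (adjusted p = 0.0756 to 0.183) or without mouse 3 (0.0777 to 0.146). Of 18 tested enzymes of other conjugations, 2 were called higher and 1 lower, against the same shares of all genes as for the regulators. Acsm3 and Tpst1 were higher (log2 fold changes of 1.35 and 0.86) and Tpmt, a thiopurine methyltransferase, was lower (-0.59). None of these 3 was called without the block (adjusted p = 0.107 to 0.149) or without mouse 3 (0.0644 to 0.173), and Tpst1 and Tpmt were also lost without mouse 1 (0.169 and 0.0740).

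Cell type markers moved with the treatment as well, and in whole organoids fewer cells of a type and less RNA per cell cannot be told apart. The 12 enterocyte markers summed to 49797, 84165 and 48429 with PBS and 62581, 94078 and 64706 with LDL, with ratios of 1.26, 1.12 and 1.34; 4 were called higher and 2 lower, and the median of their log2 fold changes was -0.08. The 8 goblet markers summed to 52427 to 57386 with PBS and 30355 to 36819 with LDL, with ratios of 0.600, 0.661 and 0.579 in mice 1, 2 and 3, and 4 were called lower and 1 higher. The 8 Paneth markers summed to 17879 to 28890 with PBS and 13848 to 16982 with LDL, with ratios of 0.565, 0.950 and 0.549, and 3 were lower and 1 higher. For the 8 stem cell markers the ranges were 46553 to 68944 and 42320 to 51204, with ratios of 0.760, 1.10 and 0.661, so that the sum was lower in mice 1 and 3 and higher in mouse 2, and 2 markers were lower and 1 higher. The 8 enteroendocrine markers had ratios of 0.896, 0.768 and 0.775, with 2 lower. The 8 tuft cell markers had ratios of 1.41, 0.725 and 1.49, and of the 5 that passed the filter 1 was lower. Of all genes tested, 5.68% were called higher and 3.46% lower. These marker calls are from the fit with the block and all mice, and calls in the other fits are not given. No marker in any list was at 0 in all libraries. The part of these shifts in the changes of Gst, Ugt and Sult genes was not tested.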

How the data were processed

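RNA-Seq of 6 organoid libraries was analyzed. Per the labels, reads were demultiplexed with bcl2fastq 2.20, aligned to GRCm39 with STAR and counted with featureCounts. The authors deposited 1 signal value per gene and library, a count normalized by DESeq2. Within each library all values were whole multiples of 1 number (100% within 0.01 reads), so the reads were recovered for the count tests. Settings for strand and multiple placements, and the annotation release, were not given in the sources used here.

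Symbols and positions came from GENCODE M39 (GRCm39), which held 54749 of the 55416 identifiers and lacked 667. Log2 values of the normalized count plus 1 were fitted, where a gene averaged at least 10, with limma 3.58.1 in R 4.3.3 (eBayes with a trend, two-sided) with the mouse as a block, adjusted by the Benjamini-Hochberg method over 18459 genes. The block was used because both libraries of a mouse share 1 animal identifier in the labels. After removal of treatment means, these libraries correlated across genes with r = 0.48, 0.42 and 0.46, and those of different mice with -0.37 to -0.08. The study's text states no design for the RNA-Seq fit. Alternatives were no block, other pseudocounts, filters and scalings, DESeq2 1.42.0, edgeR 4.0.16, each mouse left out and close copies summed (this last one chosen after seeing the data). Some of these fits (limma with and without the block, DESeq2 and edgeR with it) were also run on simulated data. The outcome is not reported here.

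Named were the called members, those whose call differed without the block, the highest gene per kilobase of each subfamily, the largest rise and fall of each family, and at most 5 called list genes per direction with a mean of at least 100. The gene families, the lists and these rules were chosen with earlier results of these data known, so counts over them are descriptions. Coding sequences were read from GRCm39 and promoters from RefSeq (GRCm38.p6), and sequences were aligned with Biopython 1.88. Python 3.11.15 was used for tables (pandas 2.3.3, numpy 2.4.6) and figures (matplotlib 3.10.9). Intervals from counting cover counting error only, and p-values measure the spread over 3 mice. Some genes are left out of the text.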

Additional observations from a re-analysis of the deposited data

How the results depend on the processing

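With the mouse as a block, 7 members were called higher and 3 lower, and these counts did not change with other pseudocounts, filters or scalings or with DESeq2 or edgeR fitted with the block. Without the replicate block, limma called 1 higher and 0 lower. It called 4 genes of the supply, export and regulator lists against 20, and 235 of all genes against 1687. DESeq2 without the block called 1 lower. Leaving out each mouse in turn gave 2 to 8 members higher, 1 to 5 lower, 4 to 34 list genes and 342 to 2952 of all genes; with the block, leaving out 1 library leaves out its mouse. Mouse 2 removed gave the highest and mouse 3 removed the lowest of these values. With close copies summed, 3 entries were higher. At an adjusted p-value under 0.05 of any fold, 6 members were lower and 2901 genes were called. The median log2 fold change of the members stayed between 0.01 and 0.22. Of the values of the members given by the naming rule under these alternatives, 239 kept their side of the threshold, 19 lost and 1 gained a call (Ugt1a1 without mouse 2), and none of a called gene changed sign. Gsta4 and Gstt1, outside that rule, were also called without mouse 2, higher and lower. The cause of these differences was not tested. Depth limits the 22 members under the filter.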
